A study of Mus musculus with 10 samples.

Results

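Mitochondrial biogenesis in muscle is run by a small set of nuclear genes, and 10 of them were followed here in gastrocnemius, a large calf muscle, of the mouse. They were taken by symbol from the deposited gene table of 21956 genes: the coactivators Ppargc1a (PGC-1α) and Ppargc1b (PGC-1β), the oestrogen-related receptors Esrra, Esrrb and Esrrg, the coactivator-induced muscle regulator Perm1, the transcription factors Nrf1 (nuclear respiratory factor 1) and Gabpa (the DNA-binding subunit of GABP), and the mitochondrial DNA factors Tfam and Tfb2m. All 10 were in the table and all 10 passed the filter on low counts, with 48 to 4689 counts per gene and library. The samples were 5 labelled Sham and 5 labelled HLI, all wild-type mice ("WT" in the labels), and the labels of the groups differed in the treatment alone. Depth ran from 16556385 to 22136299 estimated counts per library. HLI is read as hindlimb ischaemia, although no label writes it out, and age, sex, strain and time after surgery were not known. No label ties a sample to its own animal, so the p-values speak only to the spread among these libraries, part of which may be technical.

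PGC-1α and PGC-1β do not bind DNA themselves but are recruited by transcription factors, among them the oestrogen-related receptors (ERRs), NRF1 and GABP, and raise the expression of nuclear genes for respiration. The products of some of those genes are imported into the organelle: TFAM packages mitochondrial DNA and bends its promoters, and TFB2M opens the promoter for the mitochondrial RNA polymerase. In muscle the PGC-1 and ERR proteins are known for setting the oxidative capacity of fibres, for their response to exercise and, through Vegfa, for a link to capillary growth, and PERM1 is known as a muscle protein that acts with them on oxidative genes.

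Several of these genes are known targets of one another's products, and promoter stretches that hold a textbook binding core are printed for that reason. Windows of 250 bases before to 50 after a transcription start came from RefSeq (GRCm38.p6). A chromosome was left out of the search. Of the 10 genes, 9 had 14 windows in all among those searched, and Ppargc1b had none. The cores, picked after these windows had been read and searched on both strands, were GCATGCG for NRF1, CCGGAAG for GABP, AAGGTCA for the ERRs and ACGTCA for the factors that answer cyclic AMP. The NRF1 core is nearly its own reverse complement, so that matches on both strands can overlap. The other cores overlap neither each other nor the NRF1 core in these windows. Each stretch reads 5′ to 3′ on the strand of its gene, with the core in capitals. In Perm1 and Esrrg the cores lie on the opposite strand, as does the GABP core of Gabpa, so the capitals there are the reverse complement.
Ppargc1a, cyclic AMP core, chr5:51567745-51567800, minus strand: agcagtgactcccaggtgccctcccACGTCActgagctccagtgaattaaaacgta
Perm1, ERR core, chr4:156215700-156215756, plus strand: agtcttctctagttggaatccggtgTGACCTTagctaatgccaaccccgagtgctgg
Esrra, NRF1 core, chr19:6921811-6921867, minus strand: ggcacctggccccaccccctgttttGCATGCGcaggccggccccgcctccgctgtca
Esrrg, NRF1 core, chr1:187651508-187651542, plus strand: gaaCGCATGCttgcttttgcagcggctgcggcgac
Esrrg, NRF1 core, chr1:187651730-187651757, plus strand: gggagccaaaCGCATGCaaagagaaacg
Tfam, GABP core, chr10:71238060-71238116, minus strand: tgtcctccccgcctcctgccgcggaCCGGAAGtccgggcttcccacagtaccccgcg
Gabpa, GABP core, chr16:84835006-84835062, plus strand: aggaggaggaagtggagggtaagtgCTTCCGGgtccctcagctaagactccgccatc
Gabpa, NRF1 core, chr16:84835106-84835133, plus strand: ctgcactgtaCGCATGCGtattctggcc
Tfb2m, NRF1 core, chr1:179546247-179546274, minus strand: ctaggtcgttCGCATGCGccattcgtaa

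The core in Ppargc1a began 50 bases before the start and the core in Perm1 202 bases before it. In Esrra, Tfam and Gabpa the cores lay 34, 47 and 93 bases before the start, and the NRF1 core of Gabpa 8 bases before it. The pair of NRF1 cores in Esrrg lay 247 and 18 bases before the start of 1 of its windows. The NRF1 core of Tfb2m began at base 13 after the start. The NRF1 core stood in 4 of the 14 windows (Esrra, Gabpa, Tfb2m and 1 of the 4 windows of Esrrg), and in 3.58% of all 32851 windows searched. The GABP core stood in 2 windows and 8.86% of all, the ERR core in 1 window and 4.72% of all, and the cyclic AMP core in 1 window and 7.51% of all. As the cores were picked with the windows of these genes known, the counts cannot be weighed against the shares over all windows. These matches describe letters and are no evidence of binding in these samples.

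The levels of the 10 genes spanned a wide range. TPM (the deposited unit, scaled to gene length and to a common total, that allows genes to be compared) put Perm1 first, with 83.6 ± 10.3 TPM in Sham (SD, n = 5), followed by Tfam at 50.5 ± 4.03, Esrra at 39.5 ± 4.98 and Tfb2m at 25.6 ± 4.53 TPM. The Sham ranges of these genes did not overlap with the next in the order, down to the gap between Tfb2m and Gabpa. Gabpa at 13.1 ± 3.76, Esrrg at 12.5 ± 1.77, Nrf1 at 12.1 ± 3.35 and Ppargc1a at 10.4 ± 2.08 TPM had overlapping ranges and no order beyond their spread. Esrrb at 4.09 ± 1.02 and Ppargc1b at 3.35 ± 0.39 TPM came last and overlapped each other. By mean TPM over all 10 libraries, 44.7% of the tested genes stood below Ppargc1a, the coactivator best known in this tissue, and 89.6% stood below Perm1.

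**Figure D1:**
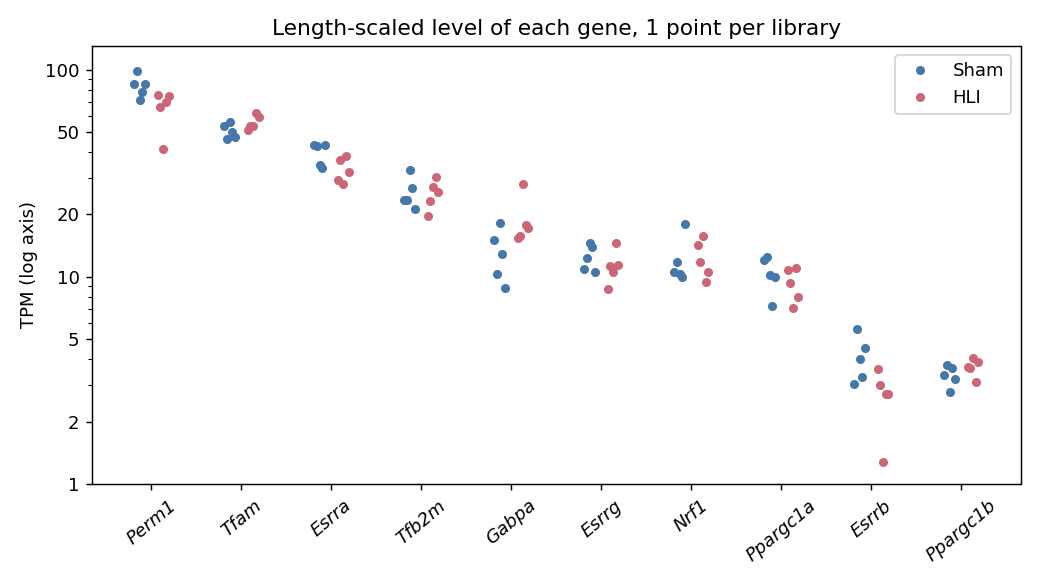
TPM on a log axis for each of the 10 genes, ordered by the Sham mean, with 1 point per library (blue Sham, red HLI, 5 each). Perm1 is the highest gene in every Sham library, and Esrrb and Ppargc1b are the lowest pair, at a few TPM.

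HLI was compared with Sham by edgeR's quasi-likelihood test over 13404 genes, with levels as CPM (counts per 1000000 counts of a library, TMM-scaled). None of the 10 genes passed at a Benjamini-Hochberg adjusted p of 0.05, and neither did any other gene (0%), the smallest adjusted p of all being 0.29. Of the 10, 8 had fold estimates below 0 and 2 above it, and their median log2 difference was -0.21, against a median of 0.03 over all tested genes, of which 46.2% were below 0. The members' median was -0.43, with 9 of 10 below 0, when HLI replicate 4 was left out. On unscaled log2(TPM + 1) it was -0.08, with 6 of 10 below 0, where the median of all tested genes was 0.19 and 9 of 10 lay below that. Before adjustment, 3 of the 10 (Esrra, Esrrb and Perm1) had p under 0.05, all lower in HLI. Such a p was reached by 16.9% of all tested genes, and by 6.15% with the lower value in HLI. None of the 10 had groups whose CPM ranges did not overlap, which 1.65% of all tested genes had. By DESeq2, 48 of the 14068 genes given an adjusted p passed (0.341%), and none of the 10 was among them. An unadjusted DESeq2 p under 0.05 was reached by 3 of the 10. It was reached by 2767 of all genes given an unadjusted p, a set not limited to the 14068. The 10 genes were chosen with earlier results of these data known, so the counts here are a description.

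**Figure D2:**
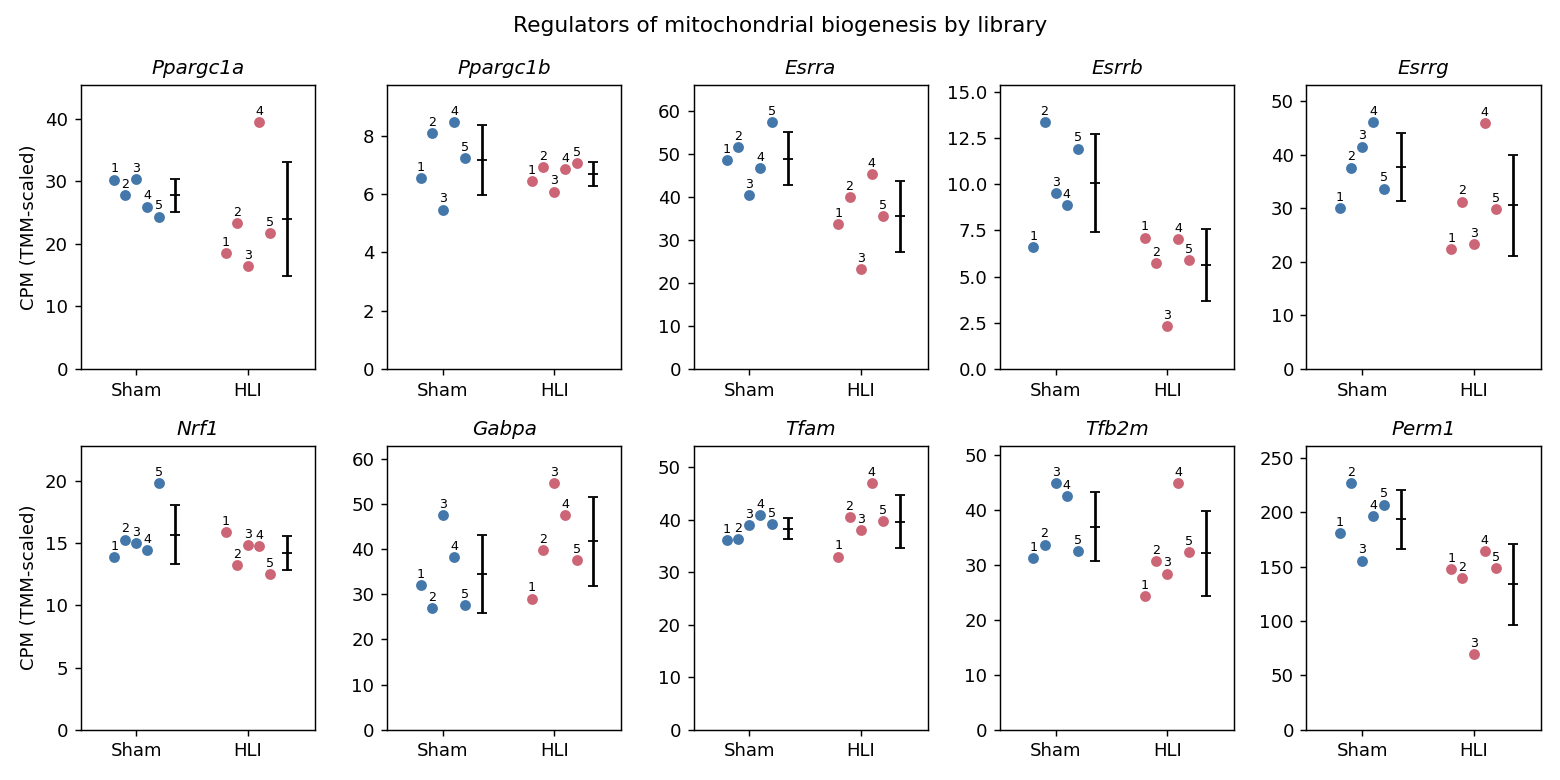
CPM of each gene by library on axes from 0, with the replicate number above each point and the group mean ± SD (n = 5) as a black bar. Perm1, Esrra and Esrrb sit lower in most HLI libraries, with HLI replicate 3 lowest, and Ppargc1a is highest in HLI replicate 4.

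Among the coactivators, Ppargc1a (ENSMUSG00000029167) stood at 30.3, 27.8, 30.4, 26.0 and 24.4 CPM in Sham replicates 1 to 5, and at 18.6, 23.3, 16.4, 39.5 and 21.8 CPM in HLI replicates 1 to 5. On this scale HLI replicates 1, 2, 3 and 5 lay below every Sham library and HLI replicate 4 above every one. In TPM that split was absent: HLI replicate 3 alone, at 7.07 TPM, lay below the Sham range of 7.21 to 12.4, and the other HLI libraries lay inside it. The means were 27.8 ± 2.64 and 23.9 ± 9.13 CPM (SD, n = 5), a log2 difference of -0.22 (SE 0.21, edgeR adjusted p = 0.55). Leaving out HLI replicate 4 gave -0.48 (SE 0.12, edgeR adjusted p = 0.081), and leaving out HLI replicate 3 gave -0.11. Unscaled log2(TPM + 1) gave -0.15, and TPM scaled by median of ratios -0.34. Ppargc1b, the paralogue expressed beside it in oxidative tissues, averaged 7.16 ± 1.21 CPM over the Sham libraries (SD, n = 5) and 6.67 ± 0.40 CPM over the HLI libraries, where all 5 libraries lay between 6.08 and 7.07 CPM, inside the Sham range of 5.47 to 8.47. Its log2 difference of -0.10 (SE 0.15, edgeR adjusted p = 0.70) became -0.20 when Sham replicate 3 was left out and -0.05 when Sham replicate 4 was. On unscaled log2(TPM + 1), where the median of all tested genes was 0.19, it was 0.10. The ratio of Ppargc1a to Ppargc1b in TPM within a library ran from 1.98 to 3.68 in Sham and from 1.74 to 3.54 in HLI.

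The receptors had the lower means in HLI throughout. Esrra (ENSMUSG00000024955), which encodes ERRα and is itself a target of PGC-1α, stood at 48.5, 51.6, 40.4, 46.8 and 57.5 CPM in Sham replicates 1 to 5, and at 33.6, 39.9, 23.3, 45.4 and 35.5 CPM in HLI replicates 1 to 5. All HLI libraries other than HLI replicate 4 lay below the lowest Sham library, Sham replicate 3, in CPM, and HLI replicates 1, 3 and 5 lay below the Sham range in TPM. The log2 difference was -0.46 (SE 0.16, edgeR p = 0.016, adjusted p = 0.29, exact two-sided permutation p of log2 CPM = 0.016), and -0.34 without HLI replicate 3. With unscaled log2(TPM + 1) it was -0.26, and -0.47 once TPM had been scaled by median of ratios.

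Esrrb (ENSMUSG00000021255), the receptor best known from stem cells, had the largest estimate of the 10 by edgeR. It stood at 6.61, 13.4, 9.54, 8.87 and 11.9 CPM in Sham replicates 1 to 5, and at 7.11, 5.71, 2.34, 7.03 and 5.87 CPM in HLI replicates 1 to 5. The log2 difference was -0.85 (SE 0.28, edgeR p = 0.011, adjusted p = 0.29, exact two-sided permutation p = 0.024), which puts the fitted HLI level at 55.7% of Sham. Sham replicate 1 lay inside the HLI range, so that the groups overlapped. The estimate was -0.65 without HLI replicate 3 and -0.49 on unscaled log2(TPM + 1). Its counts were between 48 and 276 per library.

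Esrrg (ENSMUSG00000026610), whose product ERRγ drives oxidative fibre genes, stood at 30.0, 37.6, 41.6, 46.2 and 33.7 CPM in Sham replicates 1 to 5, and at 22.4, 31.3, 23.4, 45.9 and 29.9 CPM in HLI replicates 1 to 5. HLI replicate 4 was level with the highest Sham library, whereas HLI replicates 1, 3 and 5 lay below the lowest in CPM, and HLI replicates 1 and 3 did so in TPM. The log2 difference was -0.31 (SE 0.19, edgeR adjusted p = 0.38), and -0.51 with HLI replicate 4 left out (edgeR adjusted p = 0.082). On unscaled log2(TPM + 1) it was -0.14. The make-up of the 3 receptors within a library does not depend on scaling. Esrra made up 70.3% ± 4.71 of their summed TPM in Sham and 70.2% ± 1.22 in HLI (SD, n = 5), Esrrg 22.5% ± 4.59 and 24.1% ± 2.48, and Esrrb 7.25% ± 1.45 and 5.69% ± 1.95. The lowest Esrrb share, 3.20%, was in HLI replicate 3, and the ranges overlapped for all 3 receptors.

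Perm1 (ENSMUSG00000078486), a muscle gene induced by PGC-1 and ERR, stood at 181, 227, 155, 196 and 207 CPM in Sham replicates 1 to 5, and at 148, 139, 69.2, 164 and 149 CPM in HLI replicates 1 to 5. All HLI libraries other than HLI replicate 4 lay below the lowest Sham library in CPM, whereas in TPM it was HLI replicates 2, 3 and 4 that did. HLI replicate 3 was the lowest of all by a wide margin on both scales. The means were 193 ± 27.1 and 134 ± 37.2 CPM (SD, n = 5), a log2 difference of -0.53 (SE 0.21, edgeR p = 0.024, adjusted p = 0.29, exact two-sided permutation p = 0.016). Without HLI replicate 3 the difference was -0.37 (SE 0.12, edgeR adjusted p = 0.57).

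**Figure D3:**
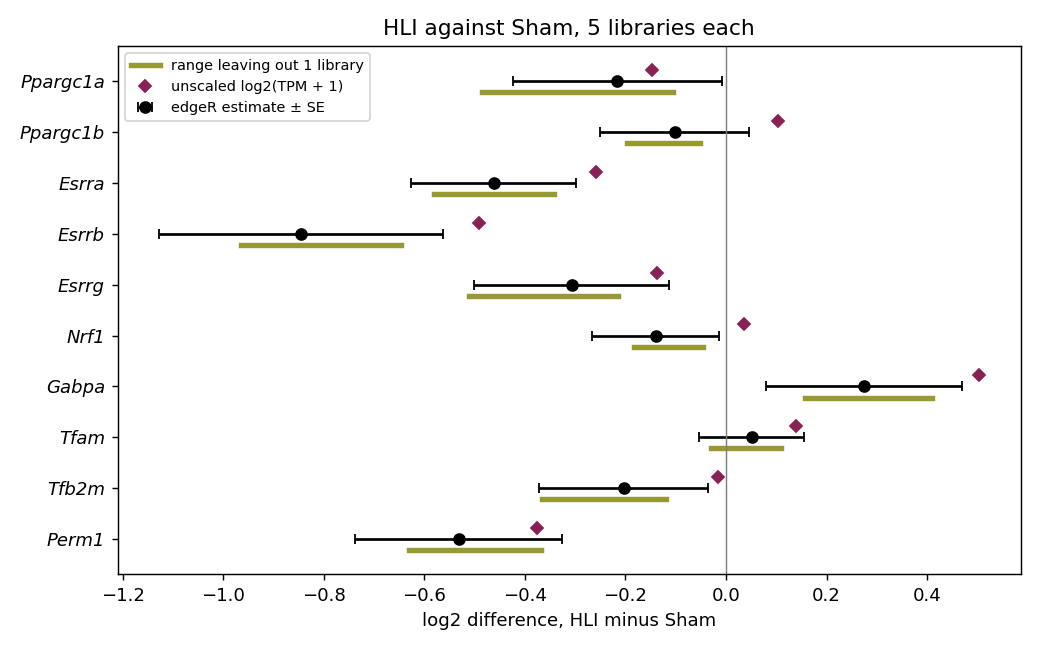
The log2 difference of HLI minus Sham for each gene: the edgeR estimate with its SE in black, the range of estimates with 1 library left out in olive, and the estimate on unscaled log2(TPM + 1) in purple. Esrra, Esrrb and Perm1 stay below 0 on every scale shown, between -0.26 and -0.96, whereas Ppargc1b, Nrf1 and Tfam lie on both sides of 0.

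Of the DNA-binding factors, Gabpa had the higher mean in HLI and Nrf1 the lower. Gabpa (ENSMUSG00000008976) stood at 32.1, 27.0, 47.5, 38.3 and 27.6 CPM in Sham replicates 1 to 5, and at 29.0, 39.8, 54.7, 47.5 and 37.6 CPM in HLI replicates 1 to 5. HLI replicate 3, the lowest library for Esrra, Esrrb, Perm1 and Ppargc1a, was the highest for Gabpa. The log2 difference was 0.27 (SE 0.19, edgeR adjusted p = 0.42), 0.16 without HLI replicate 3 and 0.50 on unscaled log2(TPM + 1). Nrf1 (ENSMUSG00000058440) averaged 15.7 ± 2.40 CPM over the Sham libraries and 14.2 ± 1.37 CPM over the HLI libraries (SD, n = 5). Sham replicate 5, at 19.9 CPM, stood apart from the other Sham libraries at 13.9 to 15.3. The log2 difference was -0.14 (SE 0.13, edgeR adjusted p = 0.52), -0.05 without Sham replicate 5 and 0.04 on unscaled log2(TPM + 1).

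Of the mitochondrial DNA factors, Tfam had the smallest spread of the 10 genes in Sham relative to its mean (a coefficient of variation of 5.30%). Tfam (ENSMUSG00000003923) averaged 38.3 ± 2.03 CPM over the Sham libraries and 39.6 ± 5.06 CPM over the HLI libraries (SD, n = 5), with HLI replicate 1 lowest at 33.0 and HLI replicate 4 highest at 47.0 CPM. Its log2 difference was 0.05 (SE 0.10, edgeR adjusted p = 0.79), -0.03 without HLI replicate 4, 0.11 without HLI replicate 1 and -0.07 after TPM had been scaled by median of ratios. Tfb2m (ENSMUSG00000026492) had 37.0 ± 6.32 and 32.2 ± 7.77 CPM, a log2 difference of -0.20 (SE 0.17, edgeR adjusted p = 0.49). HLI replicate 4, at 45.0 CPM, was level with the highest Sham library, and without it the difference was -0.37 (edgeR adjusted p = 0.11). Leaving out HLI replicate 1 gave -0.12, and unscaled log2(TPM + 1) gave -0.02.

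The SD in CPM was larger in HLI than in Sham for 7 of the 10 genes. The share over all tested genes was not counted, so this is not a trait particular to the 10. HLI replicate 4 was above the Sham mean for Ppargc1a, Esrrg, Gabpa, Tfam and Tfb2m. Without it 6 of the 10 genes had an unadjusted edgeR p under 0.05, and so had 4181 of 13522 tested genes. With it 3 of the 10 and 2262 of 13404 tested genes had one. Without HLI replicate 3 the counts were 3 of the 10 and 1160 of 13493. Without Sham replicates 2, 4 and 5 they were 2, 3 and 3 of the 10. Over all genes they were then 1173 of 13526, 1401 of 13518 and 1188 of 13556. Each other fit with 1 library left out gave 3 or 4 of the 10, and 1568 to 2781 of all genes. No gene passed after adjustment in any of these fits.

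Markers of muscle fibres moved with the libraries. The 11 fast fibre markers summed to 98531 to 135118 CPM in Sham, and to 77894, 93785, 41822, 122437 and 74691 CPM in HLI replicates 1 to 5, and 10 of the 11 had estimates below 0. The 10 slow fibre markers summed to 3471 to 4836 CPM in Sham and 2439 to 5017 CPM in HLI, with 8 of 10 below 0. The 11 macrophage markers summed to 691 to 1727 CPM in Sham and 876 to 3677 CPM in HLI, with 11 of 11 above 0, HLI replicates 1 and 3 being the highest and HLI replicate 4 the lowest of the HLI libraries. The 8 markers of fibroblasts and fibro-adipogenic progenitors summed to 5877 to 8766 and 4667 to 15606 CPM, with 7 of 8 above 0, HLI replicate 3 being the highest. None of the members of these lists passed the edgeR test, no marker in them was at 0 in all libraries, and their part in the values of the 10 genes was not tested. In bulk muscle, fewer cells of a type and less RNA per cell cannot be told apart. Actn3, a defining gene of fast fibres, was at 2253 CPM or more in every library, as the tissue label asks. A protocol note speaks of adipose material; Ucp1, the defining gene of brown fat, another tissue rich in PGC-1α, was at 0 counts in all 10 libraries, and the 8 adipocyte markers summed to 849.6 to 1208 CPM in Sham and 599.8 to 1106 CPM in HLI, with 8 of 8 below 0. Of the tested markers of other cell types, 6 of 6 of newly formed fibres, 4 of 4 of lymphocytes, 5 of 5 of erythroid cells and 7 of 10 of endothelial cells were above 0. So were 1 of 2 of brown adipocytes, 2 of 6 of neutrophils, 1 of 6 of Schwann cells and 3 of 6 of pericytes and smooth muscle, and 0 of any of these passed the edgeR test. The filter on low counts kept only 4 of 10 lymphocyte markers, 6 of 7 of newly formed fibres, 6 of 7 of neutrophils and 2 of 4 of brown adipocytes. A gene can pass it through its HLI level alone, so the filter can set the direction of such a gene, and nothing is concluded from these counts.

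**Figure D4:**
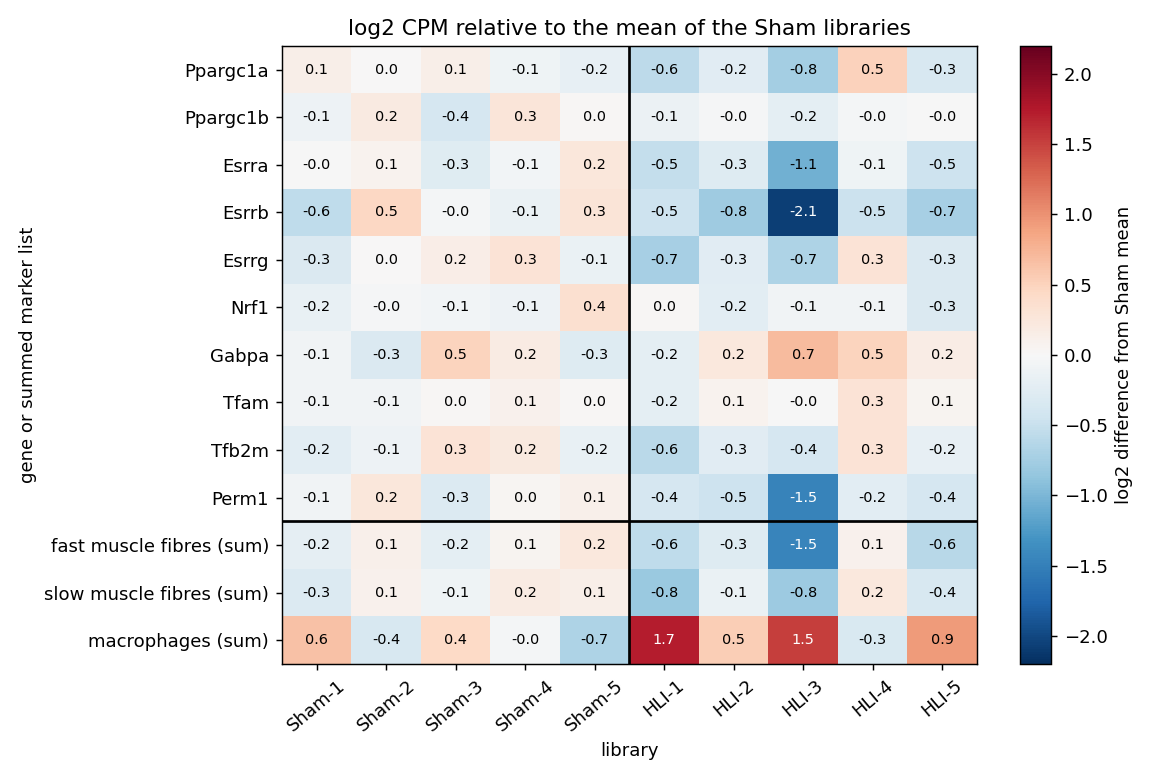
Log2 CPM of the 10 genes and of 3 summed marker lists in each library, relative to the mean of the Sham libraries, as a colour scale with the value in each cell. In HLI replicate 3 the value is -1.5 for Perm1 and for the fast fibre sum, -2.1 for Esrrb and 0.7 for Gabpa, while HLI replicate 4 has 0.5 for Ppargc1a and -0.5 for Esrrb.

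Some pairs of the 10 genes varied together across the 10 libraries. All 45 pairs were compared by the correlation of log2 CPM, with permutation p-values adjusted over the 45, and 5 pairs passed. These p-values are against no correlation at all, and the share of other gene pairs that would pass was not counted. They therefore do not show a link particular to these genes. Esrrg and Tfb2m had Pearson's r of 0.944 (permutation p = 3.0e-05, adjusted p = 0.0013) and Spearman's rho of 0.903 (permutation p = 0.0011, adjusted p = 0.026), with r of 0.903 without the 2 libraries farthest from the Esrrg median. Esrra and Perm1 had r of 0.941 (permutation p = 0.00015, adjusted p = 0.0034) and rho of 0.939 (permutation p = 0.00017, adjusted p = 0.0076), with r of 0.841 without HLI replicate 3 and Sham replicate 5. These 2 pairs held by both measures, and once group means were taken out r was 0.938 and 0.896.

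The other 3 pairs passed by Pearson's r alone. Esrrb and Perm1 had r of 0.942 (permutation p = 0.00069, adjusted p = 0.010) and rho of 0.818 (permutation p = 0.0061, adjusted p = 0.069), with r of 0.722 without HLI replicate 3 and Sham replicate 2. Esrra and Esrrb had r of 0.876 (permutation p = 0.0024, adjusted p = 0.027) and rho of 0.709 (permutation p = 0.027, adjusted p = 0.20), and r of 0.558 without HLI replicate 3 and Sham replicate 5, so that this relation rests on those libraries. Ppargc1a and Esrrg had r of 0.822 (permutation p = 0.0037, adjusted p = 0.033) and rho of 0.770 (permutation p = 0.013, adjusted p = 0.12), with r of 0.694 without HLI replicates 3 and 4. Once group means were taken out, r was 0.899 for Esrrb and Perm1, 0.768 for Esrra and Esrrb, and 0.784 for Ppargc1a and Esrrg. For the last pair r was -0.16 within Sham and 0.974 within HLI, given as a description of 5 libraries each, with no test. Of 12920 other genes at a mean of at least 1 CPM, the partner included, 40 had an r with Esrrg as high as Tfb2m did, 224 had one with Esrra as high as Perm1, and 201 had one with Esrrb as high as Perm1. The count was 951 for Esrra with the r of Esrrb as the bar, and 248 for Ppargc1a with that of Esrrg.

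**Figure D5:**
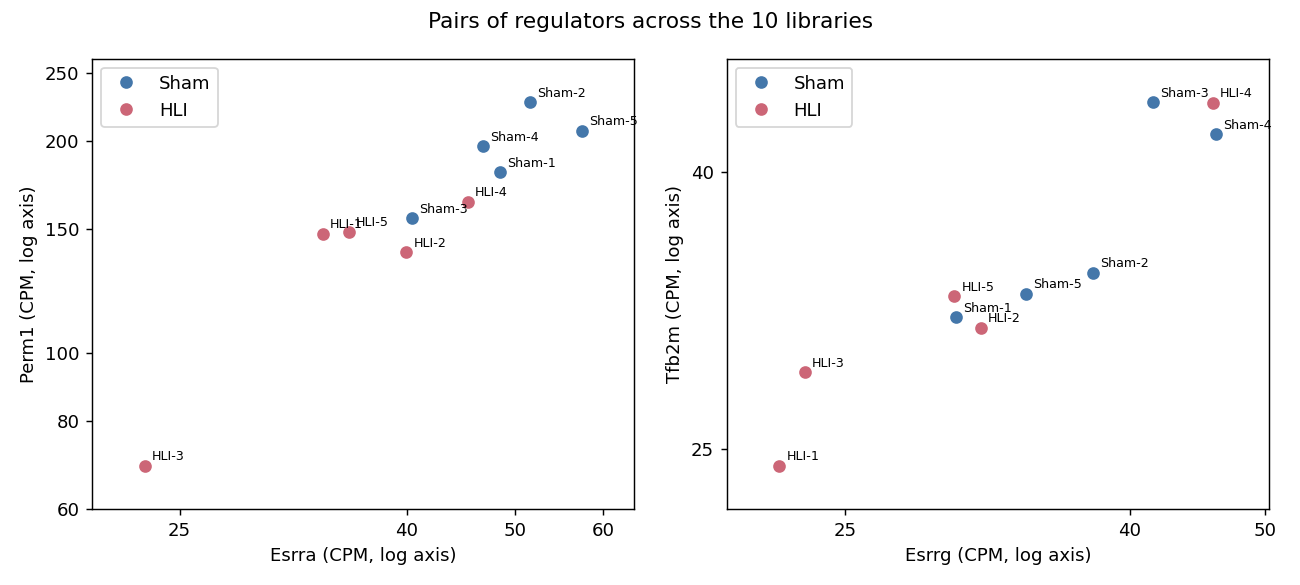
Esrra against Perm1 and Esrrg against Tfb2m, in CPM on log axes, with 1 labelled point per library (blue Sham, red HLI). For Esrra and Perm1, HLI replicate 3 lies far below the other libraries. For Esrrg and Tfb2m, HLI replicate 4 lies with Sham replicates 3 and 4 at the top, and HLI replicates 1 and 3 are at the bottom.

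The genes most like a member over the 10 libraries, by the highest Pearson's r of log2 CPM, are given as a description. For Perm1 they were Rnf10 (r = 0.987), Map2k2 (r = 0.985) and Akt2 (r = 0.985). For Esrra they were Ubac1 (r = 0.985), Adsl (r = 0.984) and Podxl2 (r = 0.982). For Esrrg they were Fam210a (r = 0.984), Abcd3 (r = 0.979) and Acadm (r = 0.978), the last encoding an enzyme of fatty acid oxidation. For Ppargc1a they were Rwdd4a (r = 0.951), Prkca (r = 0.947) and Ank3 (r = 0.935), and for Tfam Stx17 (r = 0.978), Mrpl1 (r = 0.959) and Pcmtd2 (r = 0.933).

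Other genes of the pathway were read from 5 lists, of which 88 genes were tested. Of these, 0 passed the edgeR test in either direction, with none passing by DESeq2. The lists were chosen with earlier results of these data known. Their counts and medians are therefore a description and cannot be weighed against the shares over all genes. An unadjusted edgeR p under 0.05 was reached by 12 of the 88, against 16.9% of all tested genes. All 12 were lower in HLI. Over all tested genes, 6.15% had such a p with the lower value in HLI and 10.7% with the higher. With HLI replicate 4 left out the 12 became 39 of the 88, and the count over all genes was 4181 of 13522. Leaving out Sham replicate 5 gave 4 of the 88 and 1188 of 13556 genes, and Sham replicate 2 gave 5 and 1173 of 13526. HLI replicate 3 gave 7 and 1160 of 13493, and HLI replicate 5 gave 7 and 1568 of 13480. Sham replicate 4 gave 8 and 1401 of 13518, and HLI replicate 2 gave 8 and 2073 of 13515. HLI replicate 1 gave 11 and 2355 of 13526. Sham replicate 1 gave 14 and 2781 of 13531, and Sham replicate 3 gave 17 and 2624 of 13511. The 26 targets of ERR and PGC-1 in muscle had a median log2 difference of -0.31, and 26 of 26 were below 0, between -0.64 and -0.14. On unscaled log2(TPM + 1) 23 of them were below 0, with a median of -0.13, and 26 of 26 were below the median of all tested genes. Without HLI replicate 3 the median was -0.20. Fabp3, a fatty acid carrier of the cytosol, averaged 365 ± 61.0 CPM over the Sham libraries and 258 ± 64.1 CPM over the HLI libraries. Cox6a2, the muscle form of a cytochrome c oxidase subunit, averaged 512 ± 129 and 328 ± 113 CPM (SD, n = 5, edgeR adjusted p = 0.29 for both).

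Of the 17 cofactors and nuclear receptors around PGC-1, 12 were below 0, with a median log2 difference of -0.14, which was -0.00077 on unscaled log2(TPM + 1) and -0.08 without HLI replicate 3. Ppara, the fatty acid receptor that PGC-1α coactivates, averaged 6.83 ± 1.02 CPM over the Sham libraries and 4.16 ± 0.93 CPM over the HLI libraries, a log2 difference of -0.72 (SE 0.19, edgeR adjusted p = 0.29). Rxrg, a retinoid X receptor of muscle, had 57.2 ± 6.61 and 40.7 ± 11.3 CPM. Of the 20 tested upstream kinases, deacetylases and transcription factors, 12 were below 0, with a median of -0.06 that was 0.13 on unscaled log2(TPM + 1). Leaving out 1 library moved it to -0.02 (HLI replicate 3), -0.03 (Sham replicate 2), -0.10 (Sham replicate 3) or -0.10 (HLI replicate 2). Tfeb, a regulator of lysosomal genes that also acts on Ppargc1a, had 47.0 ± 10.9 and 34.2 ± 8.81 CPM, and Mef2d, a muscle transcription factor that binds the Ppargc1a promoter, had 236 ± 41.7 and 183 ± 38.6 CPM.

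Of the 7 genes listed around NRF1 and GABP, not all of them binding partners, 5 were above 0. Their median log2 difference was 0.19, which became 0.04 when TPM was scaled by median of ratios. Gabpb2, a GABP subunit that pairs with GABPA, averaged 28.4 ± 4.94 CPM over the Sham libraries and 33.8 ± 5.81 CPM over the HLI libraries. Nfe2l2, the oxidative stress factor also called NRF2 and no part of GABP, had 58.6 ± 5.45 and 67.0 ± 7.23 CPM. Of the 18 genes of mitochondrial DNA transcription, replication and packaging, 13 were below 0, with a median of -0.13 that was 0.06 on unscaled log2(TPM + 1) and -0.07 without Sham replicate 5. Top1mt, the topoisomerase of mitochondrial DNA, had 9.97 ± 1.39 and 7.09 ± 0.99 CPM and Lonp1, the matrix protease that degrades TFAM, had 80.2 ± 7.13 and 63.9 ± 9.26 CPM (edgeR adjusted p = 0.29 for both).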

How the data were processed

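Poly(A) RNA of mouse gastrocnemius was sequenced in 10 samples, as paired-end libraries, per the labels' protocols. The authors deposited 1 table that holds estimated counts and TPM for every gene in every sample, per the file headers; 93.4% of the estimated counts were whole numbers. Bowtie 0.12.2, HISAT2 2.0 and build mm8 are named without a role, per the submitters' processing notes. How reads were counted, on which annotation and whether by strand was not known, so a gene and its antisense or overlapping neighbour cannot be told apart. Totals ran from 16556385 to 22136299 estimated counts per library.

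Estimated counts were rounded and fitted in R 4.3.3 with edgeR 4.0.16 (TMM scaling, filterByExpr at a minimum count of 10 and a minimum total of 15). TPM was fitted with limma 3.58.1 on log2(TPM + 1) or log2(TPM + 0.1), and DESeq2 1.42.0 was an alternative, as were a replicate block, no filter, DESeq2's size factors and leaving out each library. Single genes were also tested by exact permutation over 252 assignments, with a smallest p of 0.0079, an alternative chosen after seeing the data. Correlations used 100000 permutations and log2 CPM with a prior count of 2. Standard errors and adjusted p-values are edgeR's unless another tool is named. In simulated counts for 13404 genes of this comparison, 70% of 100 genes changed 2-fold and 95% of 100 changed 4-fold were recovered. Of the calls made there, 2.94% were false. Whether these shares hold for the measured libraries was not tested.

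The 10 genes and all lists were chosen with earlier results of these data known. The rule for named genes took the 10, the 2 genes of each pathway list lowest in unadjusted p among those averaging 1 CPM or more, and the 3 genes most correlated with each of 5 of the 10 genes.

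The 13 marker lists covered fast, slow and newly formed muscle fibres, endothelial cells, macrophages, lymphocytes, neutrophils, fibroblasts with fibro-adipogenic progenitors, adipocytes, brown adipocytes, Schwann cells, erythroid cells, and pericytes with smooth muscle.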

Additional observations from a re-analysis of the deposited data

Results flagged for a closer look

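The 10 genes were screened in both groups, 20 groups of 5 libraries in all, for a library whose gap to its nearest neighbour took up more than 0.71 of the range of its group. Chance alone gives about 1 such group in 20, and 2 were found. Perm1 stood at 69.2 CPM in HLI replicate 3, against 139 to 164 CPM in the other HLI libraries, and Nrf1 stood at 19.9 CPM in Sham replicate 5, against 13.9 to 15.3 CPM in the other Sham libraries.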

How the results depend on the processing

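Over all genes, 0 passed in edgeR and limma under each alternative run, and 48 passed by DESeq2; none of the 10 genes and none of the 88 other pathway genes passed under any of them. With the replicate number as a block in edgeR, 0 genes passed, and 4 of the 10, 25 of the 88 and 2986 of all 13404 genes had an unadjusted p under 0.05. Same-numbered libraries had correlations of their deviations from 0.00012 to 0.28, and -0.0090 for number 5, so the numbers were not taken to pair the samples, and 2 of 5 Sham libraries correlated best with their own number. Ppargc1a, Esrra, Esrrb, Esrrg, Gabpa, Tfb2m and Perm1 kept their sign under all 18 alternatives. The signs of the other genes turned as follows. Ppargc1b was 0.10 on log2(TPM + 1) and 0.13 on log2(TPM + 0.1), and Nrf1 was 0.036 and 0.039. Tfam was -0.071 after TPM had been scaled by median of ratios, and between -0.030 and 0.11 with 1 library left out. On unscaled TPM the median of all tested genes was 0.19. That shift was not the whole difference between TPM and CPM. TPM scaled by median of ratios gave -0.34 for Ppargc1a and -0.071 for Tfam, against -0.22 and 0.051 by edgeR. Esrrb had 48 to 276 counts per library and Ppargc1b 102 to 167.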
